A study of Mus musculus with 8 samples.

Results

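The 41 genes described here encode the machinery that copies DNA in S phase, together with the enzymes that supply nucleotides, the regulators that open S phase and factors that rebuild chromatin behind the fork. They were chosen by name, as the rows of the deposited count table with these symbols, and all 41 were found among its 56805 gene symbols. The choice was made with earlier results of these data known. Their shares beside those of all genes are therefore a description and no independent test. All 41 passed the filter on low counts, which kept 16006 genes, and the lowest count of any of them in any column was 241. The cells were OT-I CD8+ T cells, which carry a transgenic receptor for a peptide of chicken ovalbumin, from young adult C57BL/6J mice of a cross between Rag2/OT-I and Rosa26-Cas9 strains, so that every group carried Cas9. Every group was activated in vitro with CD3/CD28 beads, grown in IL-2, IL-7 and IL-15 and given a lentiviral vector with the reporter CD90.1, on which transduced cells were sorted 3 days after transduction. Control cells received a guide with no target (sgNT), and the others a guide to Elovl1 (sgElovl1), which encodes an elongase of very long chain fatty acids. Each guide was used in 2 experiments with 2 replicates, 8 labelled samples in all. The deposited table holds 4 columns, each the sum of the 2 replicates, which the study describes as mice. The study did not select mice by sex, and a column averages over all sorted cells, edited or not.

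Before S phase, the origin recognition complex with CDC6 and CDT1 loads the MCM2-7 helicase onto DNA, a step called licensing. CDC45 and the GINS complex then join MCM2-7 to make the active helicase, DNA polymerase alpha and its primase start new strands, and polymerases delta and epsilon extend them on the sliding clamp PCNA. Many of these genes are known targets of the E2F transcription factors, which are released from RB when cyclin and CDK activity rises, and activated CD8+ T cells divide fast and express them strongly.

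Total counts per column ran from 49068952 to 63623476, so that the level a count of 3 stands for was between 0.0474 and 0.0601 CPM, counting error only. CPM here means counts relative to the TMM-adjusted total of a column. Elovl1 was at 110.5 CPM with sgNT and 61.3 with sgElovl1 in experiment 1, and at 93.5 and 55.8 in experiment 2 (log2 fold change -0.80, SE 0.07, adjusted p = 3.8e-28 by edgeR). Permuting these 4 values, an exact two-sided test gave p = 0.333, the smallest that 2 against 2 allows. Summed levels of 10 T cell genes such as Cd8a, Cd3e and Lck lay between 4795 and 5348 CPM. The lists of other cell types were low throughout: 4.31 to 10.6 CPM for CD4 and regulatory T cells, where Cd4 was at most 0.11 CPM, 7.58 to 9.79 for B cells, with Ms4a1 at 0, and 11.1 to 16.9 for myeloid cells, with Lyz2 at most 0.02. Natural killer, dendritic and erythroid lists were below 2 CPM in every column, with Ncr1, Siglech and Hbb-bs at 0.

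The table allowed 2 contrasts: sgElovl1 against sgNT, and experiment 2 against experiment 1. Between the guides 0 of the 41 replication genes passed the threshold by edgeR, where 1.2% of all genes tested did, so that a count of 0 is near the background. Between the experiments 38 of the 41 were lower in experiment 2 and 1 was higher, where 29.2% of all genes tested were lower and 26.4% higher. The labels say nothing of how the experiments differed beyond their number, so that this contrast only describes how far the genes lay apart between the 2 labelled experiments. P-values rest on a dispersion trend shared by all genes and fitted to 4 columns of summed samples. The 2 columns of an experiment differ by guide, so that p-values between the experiments do not measure the spread over further experiments. In bulk RNA, fewer cells in S phase and less RNA of these genes in each cell cannot be told apart.

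The promoters of the genes are shown first, since E2F motifs are the feature best known to be shared by replication genes. RefSeq promoter windows of 300 bases (250 before to 50 after an annotated start, build GRCm38.p6) were matched by symbol for 33 of the 41 genes, and no entry was matched for Mcm4, Gins1, Gins2, Gins4, Prim2, Pole, Rfc2 and Ccne2. The E2F motif was searched on both strands as the words TTTCCCGC, TTTCGCGC, TTTGCCGC and TTTGGCGC. It was present for 14 of the 33 genes (42.4%), against 4.78% of the 10440 tested genes with a window. Counted by window, it was in 14 of the 39 windows of these genes (35.9%), against 2.26% of all 32851 windows. TTTCGCGC was in 7 windows of the replication genes, TTTCCCGC and TTTGGCGC in 6 each, and TTTGCCGC in 0. The box CCAAT, whose letters none of these words contains, was present for 20 of 33 (60.6%) against 42.9% of tested genes, and TTTGAA, a core of the motif of genes peaking in mitosis, for 5 of 33 (15.2%) against 14.6%. A match is a string of letters and not a measured site.

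The 160 bases just before the start are printed for 6 genes that hold an E2F word in them. Orc1 and Pola1 are the genes of their roles with the greatest difference between the experiments, and Mcm6, Mcm5, Cdc6 and Gins3 were added after the motifs were seen. Capitals mark E2F words, read on either strand and run together where they overlap, and each sequence is written 5′ to 3′ in the direction of its gene.
Orc1, chr4:108579294-108579453, plus strand: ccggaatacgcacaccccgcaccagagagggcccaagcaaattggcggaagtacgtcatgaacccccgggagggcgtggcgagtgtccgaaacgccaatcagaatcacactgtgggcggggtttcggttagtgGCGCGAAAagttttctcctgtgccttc
Mcm6, chr1:128359706-128359865, minus strand: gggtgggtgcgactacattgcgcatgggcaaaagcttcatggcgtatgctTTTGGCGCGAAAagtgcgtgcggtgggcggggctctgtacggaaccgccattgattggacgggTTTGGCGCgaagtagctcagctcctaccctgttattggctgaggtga
Mcm5, chr8:75109349-75109508, plus strand: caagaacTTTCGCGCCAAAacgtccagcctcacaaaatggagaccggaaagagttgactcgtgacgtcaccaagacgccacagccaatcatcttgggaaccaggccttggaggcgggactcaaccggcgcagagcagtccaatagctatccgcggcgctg
Cdc6, chr11:98907991-98908150, plus strand: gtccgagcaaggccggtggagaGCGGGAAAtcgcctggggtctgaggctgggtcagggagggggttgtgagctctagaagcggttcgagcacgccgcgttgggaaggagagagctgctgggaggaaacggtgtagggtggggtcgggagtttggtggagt
Gins3, chr8:95633399-95633558, plus strand: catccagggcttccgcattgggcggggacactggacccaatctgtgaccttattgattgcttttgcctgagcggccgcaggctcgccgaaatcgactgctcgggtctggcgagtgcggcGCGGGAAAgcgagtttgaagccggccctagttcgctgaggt
Pola1, chrX:93632156-93632315, minus strand: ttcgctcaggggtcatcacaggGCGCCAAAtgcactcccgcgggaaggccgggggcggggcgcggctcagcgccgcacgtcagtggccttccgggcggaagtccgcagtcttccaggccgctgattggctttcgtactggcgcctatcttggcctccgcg
Orc1 held a single word at -27, counted to its first base from the start. Mcm6 held 3, at -110, -106 and -47, of which the first 2 share bases, and Mcm5 held a pair of overlapping words at -153 and -149. Cdc6 and Pola1 each held 1 at -138, and Gins3 held 1 at -41.

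For comparison, the genes with the greatest difference between the experiments in 4 other roles had no E2F word in their 300 bases, and the same 160 bases are printed for them.
Mcm10, chr2:5012792-5012951, minus strand: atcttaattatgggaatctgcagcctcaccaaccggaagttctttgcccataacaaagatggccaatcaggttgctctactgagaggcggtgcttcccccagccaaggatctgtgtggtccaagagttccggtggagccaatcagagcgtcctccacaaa
Pcna, chr2:132253181-132253340, minus strand: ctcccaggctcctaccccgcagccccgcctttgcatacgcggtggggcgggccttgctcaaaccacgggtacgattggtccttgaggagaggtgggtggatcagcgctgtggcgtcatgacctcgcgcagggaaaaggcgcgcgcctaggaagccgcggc
Rrm1, chr7:102441535-102441694, plus strand: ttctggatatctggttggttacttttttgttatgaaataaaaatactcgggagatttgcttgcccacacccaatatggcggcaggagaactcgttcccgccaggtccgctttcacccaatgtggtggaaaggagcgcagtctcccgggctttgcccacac
Chaf1b, chr16:93883741-93883900, plus strand: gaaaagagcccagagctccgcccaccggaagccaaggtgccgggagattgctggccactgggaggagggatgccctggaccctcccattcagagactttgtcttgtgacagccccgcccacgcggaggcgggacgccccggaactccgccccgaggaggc
Among the genes with a word, the log2 difference between the experiments ran from -2.06 (Orc1) to 0.64 (E2f2), with a median of -0.77 over 14 genes. In the 19 matched genes without one it ran from -1.36 (Mcm2) to -0.34 (Ccne1), with a median of -0.68. The ranges overlapped, and the genes that did not pass the threshold or were higher in experiment 2 (Cdt1, Gins3 and E2f2) all held a word.

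**Figure D1:**
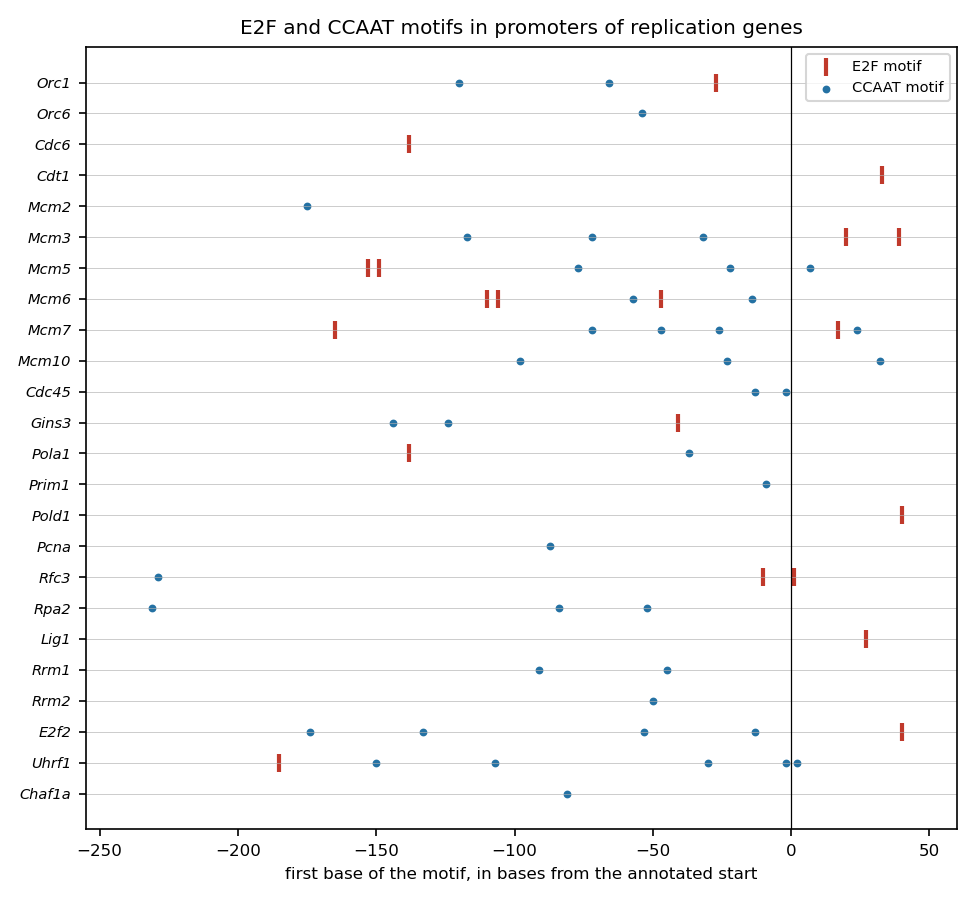
Position of E2F words (red bars) and CCAAT boxes (blue points) in promoter windows of replication genes, in bases from the annotated start; the 24 genes with at least 1 match are shown, and genes with several windows are drawn on 1 line. E2F words lie both before and after the start, and Mcm6 holds the most, at 3.

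Licensing genes had the lowest median of the 7 roles between the experiments. Of 10, 9 were lower in experiment 2, with a median log2 difference of -1.10, and 6 of them were at least 2-fold lower. Across all genes tested 29.2% were lower and 26.4% higher at the same threshold, and 6.07% were at least 2-fold lower, so that a large share of the transcriptome differed between the experiments. Among all 41 replication genes the shares were 92.7% lower and 19.5% at least 2-fold lower. The shares over all genes tested also apply beside the count of each other role given below.

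Orc1, the largest subunit of the origin recognition complex, was at 21.5 CPM (sgNT) and 20.1 (sgElovl1) in experiment 1 and at 4.82 and 5.12 in experiment 2. It thus kept 23.9% of its level (log2 difference -2.06, SE 0.12, adjusted p = 1.9e-62 by edgeR). Orc6, a smaller subunit of the same complex, was at 72.8 and 69.4 CPM in experiment 1 and at 48.8 and 51.8 in experiment 2 (-0.50, SE 0.07, adjusted p = 5.1e-12). Both subunits were lower in both columns of experiment 2, and the log2 difference of Orc1 was more than that of Orc6 by many times either SE.

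The loaders CDC6 and CDT1 went apart. Cdc6 was at 71.9 and 67.1 CPM in experiment 1 and 28.5 and 28.1 in experiment 2 (log2 difference -1.29, SE 0.07, adjusted p = 6.2e-66). Cdt1 was at 145 and 151 CPM in experiment 1 and 149 and 155 in experiment 2, and the columns overlapped (0.04, SE 0.06, adjusted p = 0.65). The GENCODE M21 annotation places another gene, Gm20388, over the whole of Cdt1 on the same strand. The deposited count table held no row of that name, and how its reads were counted is not known.

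The 6 subunits of the MCM2-7 ring were all lower in experiment 2, and their summed level was 1835 CPM (sgNT) and 1791 (sgElovl1) in experiment 1 against 927 and 865 in experiment 2. Mcm2 differed most, with 204 and 194 CPM against 80.1 and 75.3 (log2 difference -1.36, SE 0.07, adjusted p = 2.8e-92). Mcm6 was at 387 and 394 CPM against 168 and 158 (-1.26, SE 0.06). Mcm3 was at 343 and 332 CPM against 167 and 149 (-1.10, SE 0.06).
The subunits did not differ by the same amount. Mcm4 was at 192 and 186 CPM in experiment 1 and at 91.9 and 84.3 in experiment 2 (-1.10, SE 0.06). Mcm7 was at 340.1 and 329 CPM against 196 and 185 (-0.81, SE 0.06), and Mcm5, the least different, at 369 and 355 CPM against 224 and 213 (-0.73, SE 0.06). Neither experiment overlapped the other for any subunit.

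**Figure D2:**
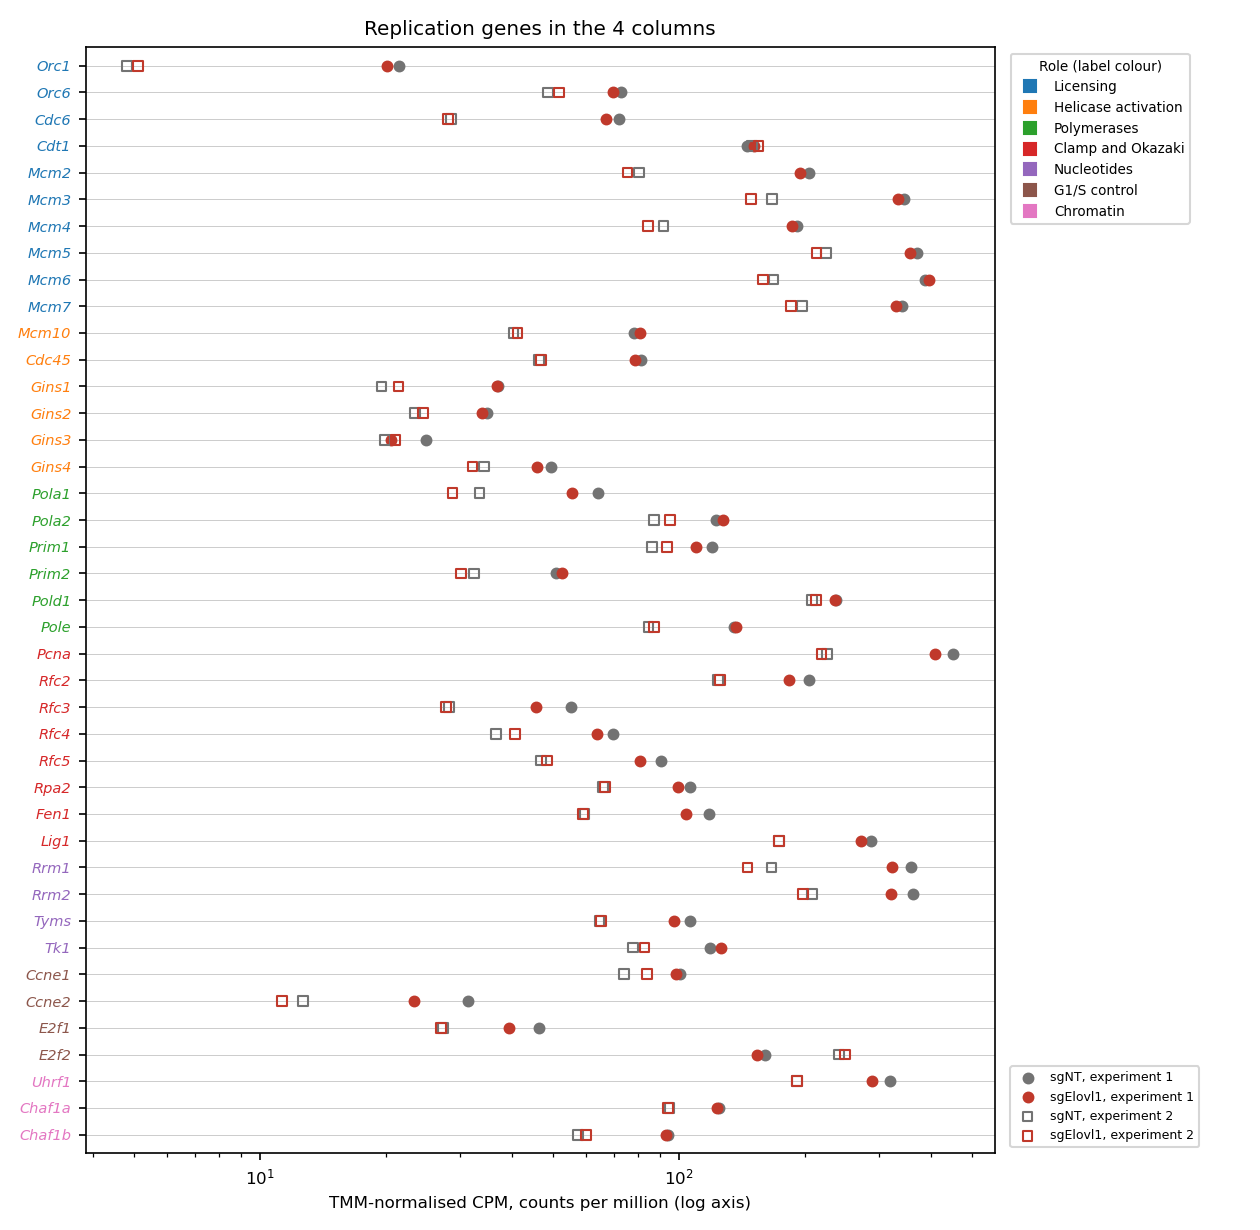
TMM-normalised CPM (log axis) of the 41 replication genes in the 4 columns; filled circles are experiment 1, open squares experiment 2, grey sgNT and red sgElovl1, and the colour of a gene's name gives its role. Both squares lie left of both circles for 38 genes, right of them for E2f2, and between or among them for Cdt1 and Gins3.

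Of the 6 genes that turn the loaded ring into an active helicase, 5 were lower in experiment 2 (median log2 difference -0.65). Mcm10, which helps to start the helicase, was at 78.0 and 80.6 CPM in experiment 1 and 40.3 and 41.2 in experiment 2 (-0.96, SE 0.07, adjusted p = 2.3e-40). Cdc45 was at 81.3 and 78.6 CPM against 46.4 and 46.9 (-0.78, SE 0.07).
The 4 GINS genes encode subunits of a single complex and differed unequally. Gins1 was at 37.0 and 36.8 CPM against 19.5 and 21.4 (-0.85, SE 0.08), and Gins2 (-0.52, SE 0.08) and Gins4 (-0.52, SE 0.08) were each at about 70% of their level in experiment 1, at 69.8% and 69.6%. Gins3 was at 24.9 and 20.5 CPM in experiment 1 and 19.9 and 21.1 in experiment 2, where the columns overlapped (-0.15, SE 0.09, adjusted p = 0.17). Without the sgElovl1 column of experiment 1, Gins3 passed the threshold (-0.28, adjusted p = 0.023 by edgeR).

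All 6 polymerase and primase genes were lower in experiment 2 (median -0.56). Pola1, the catalytic subunit of polymerase alpha, was at 63.96 and 55.6 CPM in experiment 1 and at 33.4 and 28.8 in experiment 2 (-0.94, SE 0.07, adjusted p = 2e-35). Its partner Pola2 was at 122 and 128 CPM against 87.2 and 95.3 (-0.45, SE 0.07). The primase subunits Prim1 (-0.36, SE 0.07) and Prim2 (-0.73, SE 0.08) were lower as well.
Pole, the catalytic subunit of polymerase epsilon, was at 135 and 137 CPM against 84.6 and 87.3 (-0.66, SE 0.07). Pold1, that of polymerase delta, was at 237 and 236 CPM against 207 and 212 (-0.17, SE 0.06, adjusted p = 0.013 by edgeR). Its call was the least stable of the set: it was lost in 8 of the 13 alternatives, for example with upper-quartile scaling (-0.09, adjusted p = 0.196) and without the sgNT column of experiment 2 (-0.13, adjusted p = 0.38).

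The 8 genes of the clamp, its loader and the joining of Okazaki fragments moved within a narrow range. All were lower in experiment 2, between -0.95 and -0.63 on the log2 scale, with a median of -0.81. Pcna, the sliding clamp, was at 451 and 409 CPM in experiment 1 and at 225 and 219 in experiment 2 (-0.95, SE 0.06, adjusted p = 3.1e-47). Counts of the pseudogene Pcna-ps2 were at most 0.793% of those of Pcna.
The loader subunits Rfc3 (-0.84, SE 0.08), Rfc4 (-0.79, SE 0.07) and Rfc5 (-0.85, SE 0.07) lay within their errors of each other, and Rfc2 was at -0.63 (SE 0.06). Fen1, which trims flaps from Okazaki fragments, was at 118 and 104 CPM against 59.5 and 59.0 (-0.90, SE 0.07), and Lig1, which seals them, at 288 and 272 CPM against 173 and 173 (-0.69, SE 0.06). Rpa2, a subunit of the protein that coats single strands, was at 106 and 99.4 CPM against 65.8 and 66.5 (-0.64, SE 0.07).

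The 4 genes of nucleotide supply were lower in experiment 2 (median -0.70). Rrm1, the large subunit of ribonucleotide reductase, was at 358 and 322 CPM in experiment 1 and at 166 and 146 in experiment 2 (-1.13, SE 0.06, adjusted p = 7.3e-66). Its partner Rrm2, made in S phase, was at 361 and 321 CPM against 207 and 198 (-0.75, SE 0.06). Tyms, thymidylate synthase, was at 106 and 97.1 CPM against 64.6 and 65.2 (-0.64, SE 0.07), with counts of its pseudogene at most 0.138% of its own, and Tk1, thymidine kinase, at 118 and 126 CPM against 77.6 and 82.7 (-0.61, SE 0.07).

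The 4 regulators of entry into S phase divided. Ccne2, cyclin E2, was at 31.3 and 23.4 CPM in experiment 1 and at 12.7 and 11.3 in experiment 2 (-1.18, SE 0.10, adjusted p = 4.5e-33), whereas Ccne1, cyclin E1, was at 100.4 and 98.6 CPM against 73.9 and 83.9 (-0.34, SE 0.07, adjusted p = 1.5e-06). Ccne1 lost its call without the sgNT column of experiment 2 (-0.22, adjusted p = 0.111 by edgeR). Of the activator E2Fs, E2f1 was at 46.4 and 39.3 CPM against 27.4 and 27.0 (-0.65, SE 0.08), and E2f2 was the single gene of the 41 that was higher, at 160.4 and 154 CPM against 241 and 249 (0.64, SE 0.06, adjusted p = 7.2e-23).

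The 3 chromatin genes were all lower. Uhrf1, which brings DNA methylation to new strands, was at 319 and 289 CPM in experiment 1 and at 191 and 191 in experiment 2 (-0.67, SE 0.06, adjusted p = 2.1e-24). The subunits of the histone chaperone CAF-1 differed less in Chaf1a, at 124 and 123 CPM against 94.9 and 93.9 (-0.39, SE 0.07), than in Chaf1b, at 94.3 and 93.3 against 57.3 and 60.1 (-0.68, SE 0.07).

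**Figure D3:**
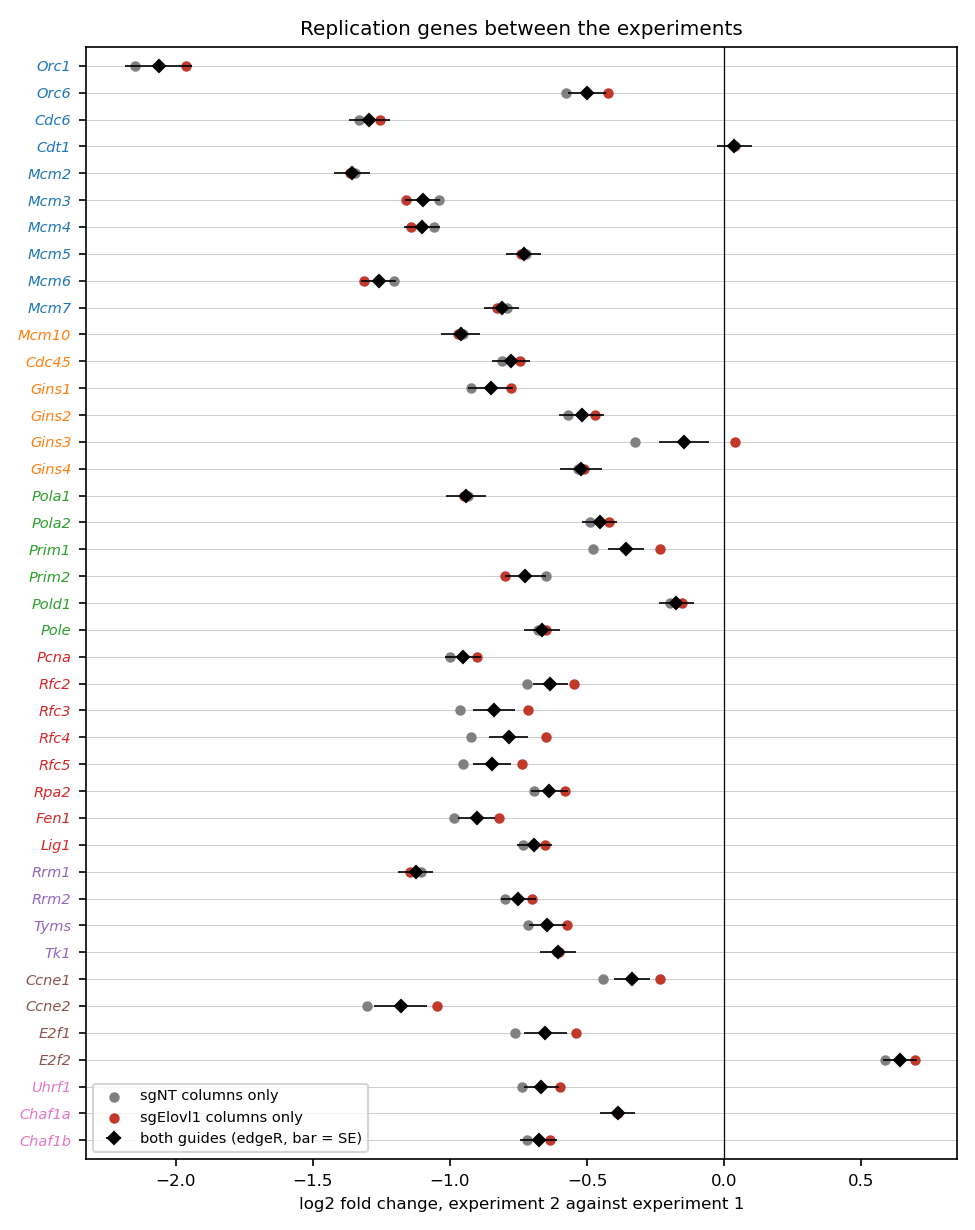
Log2 fold change of each replication gene in experiment 2 against experiment 1 from both guides (black diamonds, bars are SE), and between the sgNT columns (grey) and the sgElovl1 columns (red) alone. Orc1 stands farthest left at -2.06, E2f2 is right of 0 at 0.64, and Cdt1 and Gins3 lie nearest to 0.

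Over the 41 genes the median log2 difference was -0.73, or 60.5% of the level of experiment 1, while the median over all genes tested was -0.00. The difference was seen with either guide, with a median of -0.74 between the sgNT columns and -0.65 between the sgElovl1 columns. Both columns of experiment 2 were below both of experiment 1 for 38 genes (92.7%), against 38.4% of all genes tested. The genes made up 0.636% and 0.618% of all counts in experiment 1, and 0.392% and 0.368% in experiment 2.
The share of counts from mitochondrial genes also moved between columns, with 7.72% and 9.72% in experiment 1 and 10.2% and 14.3% in experiment 2. With these genes and the 20 genes of most counts removed before scaling, 39 of the 41 still passed the threshold, 38 of them lower, and the median was -0.73. Of the T cell genes, 7 of 10 were higher in experiment 2 (median 0.21), where 26.4% of all genes tested were. Trac was lower, as most replication genes were (-0.52, SE 0.07, adjusted p = 5.7e-13 by edgeR), and 2 T cell genes did not pass the threshold. Among markers of other cells, Foxp3 rose from 4.28 and 5.45 CPM to 8.67 and 10.6 (adjusted p = 1.9e-09), and Itgam from 0.25 and 0.40 to 2.28 and 2.69 (adjusted p = 4.7e-11). Their part in the result was not tested.

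Other genes of the same processes, taken from lists of known function, give the setting. These lists too were drawn up with earlier results of these data known. For each of these lists, the shares over all genes tested were 29.2% lower and 26.4% higher in experiment 2. Of 36 other replication factors tested, 30 were lower and 1 higher in experiment 2, with a median of -0.46. Pole2, the second subunit of polymerase epsilon (-1.28, SE 0.11), and Tipin, which holds the fork together (-1.21, SE 0.07), were the lowest, and Pold4, a small subunit of polymerase delta, was higher (0.51, SE 0.07). The chromatin factors of replication had 17 of 18 lower and a median of -0.91, led by Cdca7, a partner of the remodeller HELLS (-1.69, SE 0.08), and Ung, which removes uracil from DNA (-1.37, SE 0.10).
The other enzymes of nucleotide synthesis had 16 of 20 lower and 2 higher, with a median of -0.85. Shmt1, which feeds one-carbon units to thymidylate (-2.08, SE 0.09), and Ppat, the first committed enzyme of purine synthesis (-1.57, SE 0.08), were lowest. Samhd1, which breaks down deoxynucleotides, was higher (0.56, SE 0.07).
Among 29 genes of RB, E2F and cyclin control, 22 were lower and 2 higher (median -0.55). The CDK inhibitors took both directions: Cdkn1a (-1.84, SE 0.07) and Cdkn2b (-1.69, SE 0.16) were the lowest, and Cdkn1b (0.41, SE 0.06) and Cdkn2d (0.29, SE 0.07) were higher. The checkpoint list had 9 of 12 lower and 1 higher (median -0.33), with Hus1 (-0.80, SE 0.11) and Chek1 (-0.75, SE 0.08) lowest and Rad9a higher (0.21, SE 0.07).

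Genes of G2 and mitosis, the cell cycle phases that follow replication, differed less. Of 34, 20 were lower and 5 higher (median -0.23), where 29.2% of all genes tested were lower and 26.4% higher. None was at least 2-fold lower, against 6.07% of all genes tested. The summed level of the 34 in experiment 2 was 91.0% of that in experiment 1, against 61.5% for the 41 replication genes. A sum gives most weight to genes of many counts, and by the median gene the values were 85.5% and 60.5%. Cdk1, the kinase of mitotic entry (-0.77, SE 0.06), and Mad2l1, of the spindle checkpoint (-0.64, SE 0.07), were lowest, and Cdc25b (0.50, SE 0.06) and Cenpe (0.43, SE 0.06) were higher. Whether the lists differ from each other was not tested.
Histone genes, whose RNA mostly lacks a poly(A) tail and is poorly caught in mRNA libraries, had 34 of 59 tested lower and 3 higher, with a median of -0.62. Their values ran from -3.34 to 2.13, the widest of these lists, but both ends were genes of few counts. H2ac19 (-3.34, SE 1.07) had 2 to 26 counts per column, and H2ac25 (2.13, SE 0.58) had 12 to 71. H1f1 (-1.80, SE 0.12) and H1f4 (-1.53, SE 0.14) were the lowest at a mean of at least 5 CPM.

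**Figure D4:**
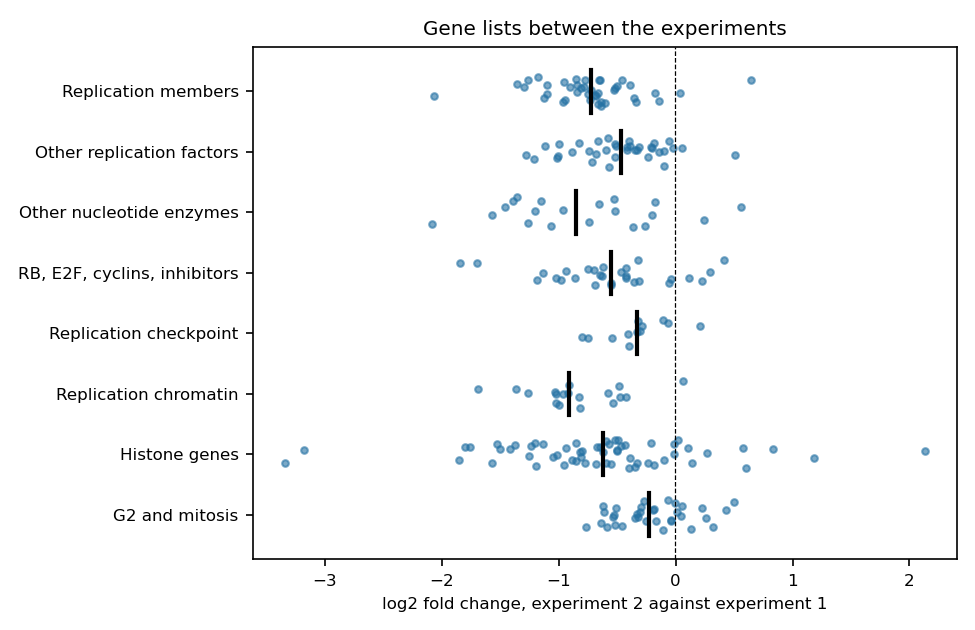
Log2 fold change in experiment 2 against experiment 1 for the tested genes of each list (points, spread vertically for legibility), with the median of the list (black bar) and of all genes tested (dashed line). The median of the 41 replication genes is -0.73, that of other nucleotide enzymes -0.85 and that of G2 and mitosis genes -0.23.

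Between the guides, none of the 41 replication genes passed the threshold in either direction (edgeR quasi-likelihood test), where 1.2% of all genes tested did (192 of 16006). At an unadjusted p under 0.05 there were 4 (9.76%), all with negative fold changes, against 10.6% of all genes tested, so that this count was at the background too. At the same unadjusted threshold limma-voom found 5, and DESeq2 found 1 by its Wald test and 1 by its likelihood-ratio test. The share over all genes at that threshold is not given for these methods, so these counts stand without a background. Log2 fold changes ran from -0.30 (Ccne2) to 0.09 (Pola2), with SEs of 0.06 to 0.12. The 95% intervals of all 41 lay within 0.5 on either side of 0, the lowest bound being -0.49 and the highest 0.22, so that a change of 2-fold in either direction lay outside the interval of each gene. These intervals rest on the dispersion shared by all genes.

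The values of these 4 genes, Ccne2, Pola1, Rrm1 and Rfc3, are given as a description, since none passed the threshold. Ccne2 was at 31.3 CPM with sgNT and 23.4 with sgElovl1 in experiment 1 and at 12.7 and 11.3 in experiment 2 (log2 fold change -0.30, SE 0.10, 95% interval -0.49 to -0.12, adjusted p = 0.0877 by edgeR). Pola1 went from 63.96 to 55.6 CPM and from 33.4 to 28.8 (-0.21, SE 0.07, interval -0.35 to -0.06, adjusted p = 0.167). Both were below sgNT in each experiment, Pola1 by about the same amount, at -0.20 and -0.21.
Rrm1 was at 358 and 322 CPM in experiment 1 and 166 and 146 in experiment 2 (-0.17, SE 0.06, adjusted p = 0.211). Rfc3 was at 55.1 and 45.7 CPM, then 28.2 and 27.8 (-0.15, SE 0.08, adjusted p = 0.45), with fold changes of -0.27 in experiment 1 and -0.02 in experiment 2, whose difference was not tested. For each of the 4 genes the difference between the guides was smaller than that between the experiments.

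The licensing genes moved little between the guides. Orc1 was at -0.02 (SE 0.12), Cdc6 at -0.06 (SE 0.07) and Cdt1 at 0.06 (SE 0.06), and the MCM2-7 subunits lay between -0.10 (Mcm3) and -0.03 (Mcm6), none past the threshold. Pcna was at -0.09 (SE 0.06), E2f1 at -0.13 (SE 0.08) and Tk1 at 0.09 (SE 0.07), also short of it.
Of the 41 fold changes, 29 were below 0 (70.7%) and 12 above, with a median of -0.04, where 53.5% of all genes tested were below 0 and their median was -0.01. In experiment 1 the median was -0.07 with 34 below 0 (82.9%, against 54.4% of all genes), and in experiment 2 it was 0.01 with 19 below 0 (46.3%, against 8003 of 16006 genes). The direction was the same in both experiments for 22 of 41 genes (53.7%), near the 55.7% of all genes tested.

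**Figure D5:**
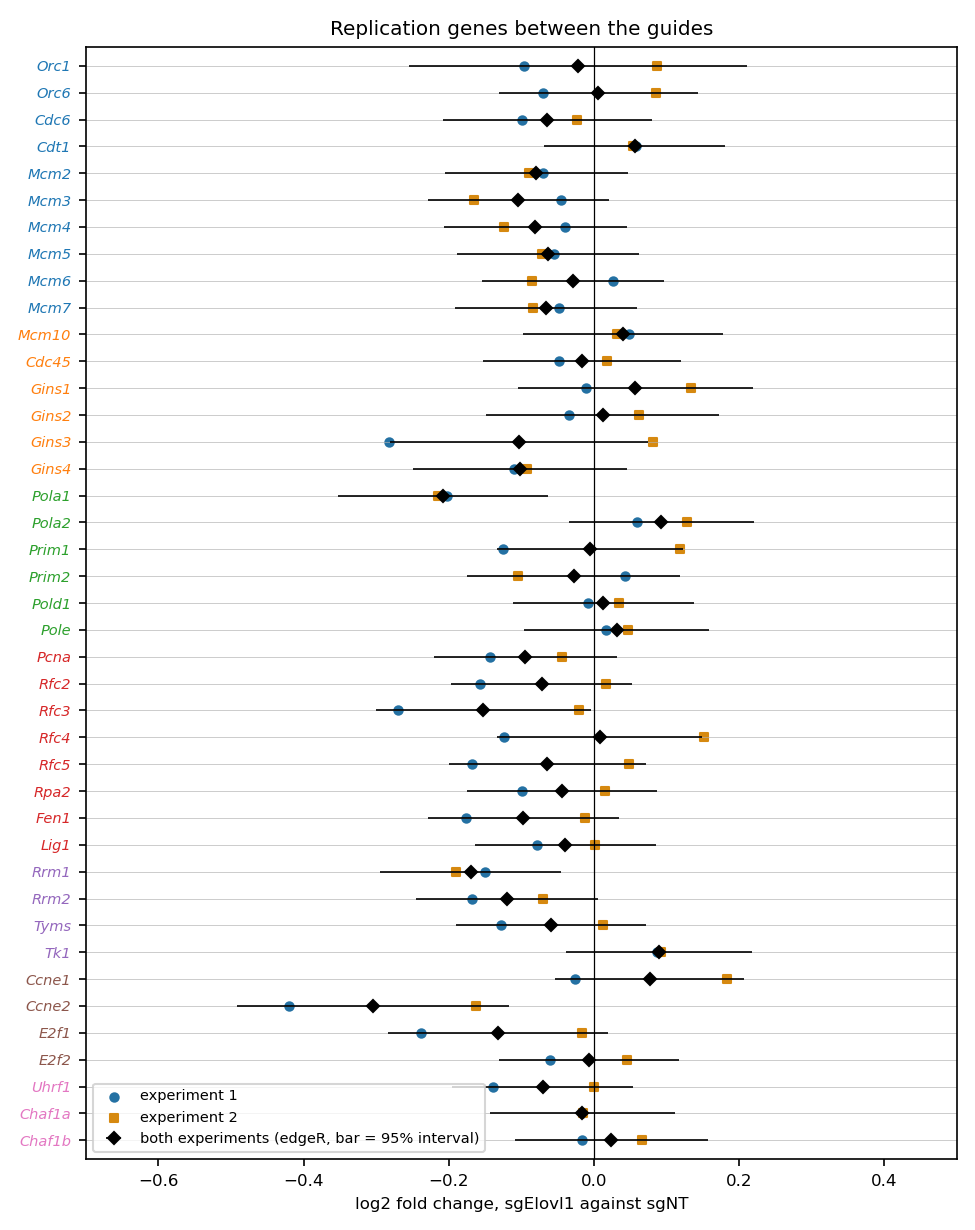
Log2 fold change of each replication gene with sgElovl1 against sgNT from both experiments (black diamonds, bars are 95% intervals) and within experiment 1 (blue circles) and experiment 2 (orange squares). Ccne2 stands farthest left at -0.30, and every interval lies within 0.5 of 0.

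In the lists of related function, 2 genes passed the threshold between the guides, 1 of 18 chromatin factors and 1 of 34 genes of G2 and mitosis. Over these lists together that is near the background, since 1.2% of all genes tested passed. Cdca7 was lower with sgElovl1 (-0.29, SE 0.08, adjusted p = 0.021), as was Cdc20, the activator of the anaphase-promoting complex (-0.29, SE 0.06, adjusted p = 0.0014), both by edgeR. No other gene of the replication, nucleotide, RB and E2F, checkpoint, histone or mitotic lists passed. Among those that did not were Umps, of pyrimidine synthesis (-0.21, SE 0.07, adjusted p = 0.152), and Myc (0.18, SE 0.06, adjusted p = 0.168).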

How the data were processed

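RNA was measured in 8 labelled samples of OT-I CD8+ T cells (2 guides, 2 experiments, 2 replicates each). As the study's methods and the submitters' notes on processing give it, the authors aligned reads with STAR 2.7.10b to GRCm39 (mm39), counted them per whole gene, introns included and by strand, with featureCounts 2.0.1, and summed the 2 replicates of an experiment; how reads with several alignments were treated is not stated in the methods read here. The deposited values were raw counts in 4 columns, with 0 rows naming no gene and 0 columns without a group. Columns totalled 49068952 to 63623476 counts, and the members had 241 to 28584 each, and precision was lowest for those of fewest counts.

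Counts were filtered with filterByExpr (16006 of 56805 symbols kept; 32132 had no count), scaled by TMM and fitted in edgeR 4.0.16 (R 4.3.3; quasi-likelihood F test), with experiment and guide as terms, which left 1 residual degree of freedom. P-values were adjusted by Benjamini-Hochberg over all genes tested, at a threshold of 0.05. The prior degrees of freedom were infinite, so SEs rest on the dispersion trend (biological coefficient of variation 6.98%) and 95% intervals are SE multiplied by the normal quantile. CPM are counts scaled to a common total after TMM, not corrected for gene length. Levels were therefore not compared between genes, apart from those of T cell genes and markers of other cells, where the comparison is rough. Same-strand overlaps and promoters came from GENCODE M21 and RefSeq on GRCm38, another build than that of the counts, and were joined by symbol only. Of the 41 genes, 8 had a same-strand overlap, all but that of Cdt1 with genes of at most 47 counts over the 4 columns.

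The members and gene lists were chosen with earlier results of these data known. Named were all members, from each list up to 3 genes past the threshold between the guides or else the 2 of smallest p, and the 2 of greatest difference per direction between the experiments at a mean of at least 5 CPM; markers of other cells were named by level, and some genes of the rule are left out. Alternatives were DESeq2 size factors, upper-quartile factors, no filter, a mean of at least 5 CPM, DESeq2 1.42.0 (Wald and likelihood-ratio), limma-voom (limma 3.58.1), removal of mitochondrial and 20 top genes, the other term left out, each column left out, and a looser motif. Scripts were tested on simulated data. Plots were drawn with matplotlib.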

Additional observations from a re-analysis of the deposited data

Results flagged for a closer look

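For 2 replication genes the fold changes of sgElovl1 against sgNT had opposite signs in the experiments, each of at least 0.1 on the log2 scale. Prim1, the catalytic subunit of primase, was at -0.13 in experiment 1 (119.9 to 109.9 CPM) and 0.12 in experiment 2 (86.0 to 93.4). Rfc4, a subunit of the clamp loader, was at -0.12 in experiment 1 (69.4 to 63.7 CPM) and 0.15 in experiment 2 (36.6 to 40.6). The difference between the experiments was not tested, since a fold change within an experiment rests on 1 column per guide.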

How the results depend on the processing

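Of the 13 alternatives, those that kept all 4 columns put 38 or 39 replication genes past the threshold between the experiments. In the same fits 6880 to 8885 of all genes passed, and the number of genes tested depended on the filter. Between the guides the count of replication genes past the threshold was 0 under the 8 alternatives that kept the experiment as a term. The other 5, which dropped that term (alone or with a column left out), called at most 1 gene of all those tested, so that their 0 says nothing of stability. With a column left out, the median of the replication genes between the guides ran from -0.42 to 0.36, and 12 to 28 of them changed sign, since the guides were then unevenly spread over the experiments. Beside Pold1, Ccne1 and Gins3, whose values stand in the report, no replication gene changed its call. Elovl1 kept its direction throughout and lost its call with no experiment term (-0.80, adjusted p near 1) and without each column in turn (-0.89 to -0.68), fits in which the experiment was not a term. With the first T of each E2F word dropped, 22 of 33 genes held a match in place of 14, against 19.2% of tested genes. Upper-quartile scaling moved the median of all genes between the experiments to 0.08. Counts of genes called between the guides ran lower by DESeq2, 26 by either test, at a mean of at least 5 CPM, 35, and with no filter, 94, against 192. No paired analysis was possible because each column sums both replicates of its group, so that no replicate number is left in the columns; the guides were matched by experiment, which was a term of the fit. DESeq2 gave an adjusted p between the guides for 38 of the 41 genes and NA for 3. Depth limited the genes of fewest counts, with an SE between the guides of 0.12 for Orc1 (241 counts in its lowest column) against 0.06 for genes of many counts, and the 4 columns leave 1 residual degree of freedom.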
